A study of Mus musculus with 7 samples.

Results

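The insulin-like growth factor (IGF) genes examined here are Igf1, Igf1r, Igf2r, Igfbp2 to Igfbp7 and Pappa, which are 10 of the 42687 gene identifiers in the count table. They were taken by symbol, and the set was drawn up with the diet comparison of these same libraries already known. The diet differences of these 10 genes are therefore given as values with no p. Calls past a threshold are listed only beside the share of all genes, as a description. Their identifiers in the table are ENSMUSG00000020053 (Igf1), ENSMUSG00000005533 (Igf1r), ENSMUSG00000039323 (Igfbp2), ENSMUSG00000020427 (Igfbp3), ENSMUSG00000017493 (Igfbp4), ENSMUSG00000026185 (Igfbp5), ENSMUSG00000023046 (Igfbp6), ENSMUSG00000036256 (Igfbp7), ENSMUSG00000028370 (Pappa) and ENSMUSG00000023830 (Igf2r), and coordinates below are on build GRCm38 (mm10). The libraries hold RNA of cells that carried CD24 and CD29 and were isolated by FACS from the femurs of C57BL/6 mice, a population the labels name as skeletal stem cells. Mice that were 3 months old ate a diet with 60% fat (high fat diet, HFD; 3 libraries, numbered 2 to 4) or a control diet with 10% fat (low fat diet, LFD; 4 libraries, numbered 1 to 4) for 4 weeks. The labels give no sex and do not say whether a library is 1 animal or a pool.

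IGF1 is a secreted growth peptide that signals through the receptor tyrosine kinase IGF1R, and bone and marrow cells both make it and respond to it. In tissue fluid most of it is held by IGF binding proteins, which carry it, store it in matrix or keep it from its receptor. Proteases such as PAPP-A cut particular binding proteins and set the ligand free, and the stanniocalcins block that protease.

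Total counts ranged from 17391613 to 24681838 per library, and 9 of the 10 genes passed the filter on low counts, all but Igfbp2. Values are CPM, counts scaled to the size of the library, with the library size corrected by TMM, a factor that evens out differences in composition. Diet and sex-linked transcripts divided the libraries in the same way. Xist was at 0 counts in each HFD library and at 21.4 ± 7.73 CPM in LFD libraries, while the Y-linked gene Ddx3y measured 74.1 ± 7.40 CPM in HFD and 0.0878 ± 0.0842 CPM in LFD (SD, n = 3 and n = 4). Diet and sex therefore cannot be told apart in any difference below. The sorting gene Itgb1 (CD29) measured 446 ± 59.8 CPM in HFD and 426 ± 57.8 CPM in LFD, and Cd24a 2077 ± 1161 and 3471 ± 1448 CPM in the same order. Red cell transcripts were abundant, with the erythroid list summing to 22206 to 107363 CPM in HFD libraries and 92191 to 158199 CPM in LFD libraries.

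Of the 9 genes tested, 0 passed an adjusted p of 0.05 in edgeR's quasi-likelihood test, where 0.0350% of all 14304 genes tested did (0.0280% higher and 0.00699% lower in HFD), 4 of those 5 genes being sex-linked. At an unadjusted p under 0.05 there were 2, Igfbp4 and Igfbp3, where 7.53% of all genes lay. Igfbp4 was called by DESeq2, which called 2.15% of all genes, by limma-voom, which called 0.196%, by edgeR without the filter, which called 0.0343%, and by edgeR at an adjusted threshold of 0.1, which called 0.0699%. The HFD and LFD libraries did not overlap for Igfbp4 (HFD above) and Igf1r (HFD below), as for 8.40% and 3.47% of all genes (11.9% in all). Log2 fold changes (HFD over LFD) were positive for 5 genes and negative for 4, where 51.5% of all genes were positive, with a median of 0.21 against 0.02 over all genes. Since the set was chosen on this contrast, none of these counts or calls is a result about the set or a test of Igfbp4.

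**Figure D1:**
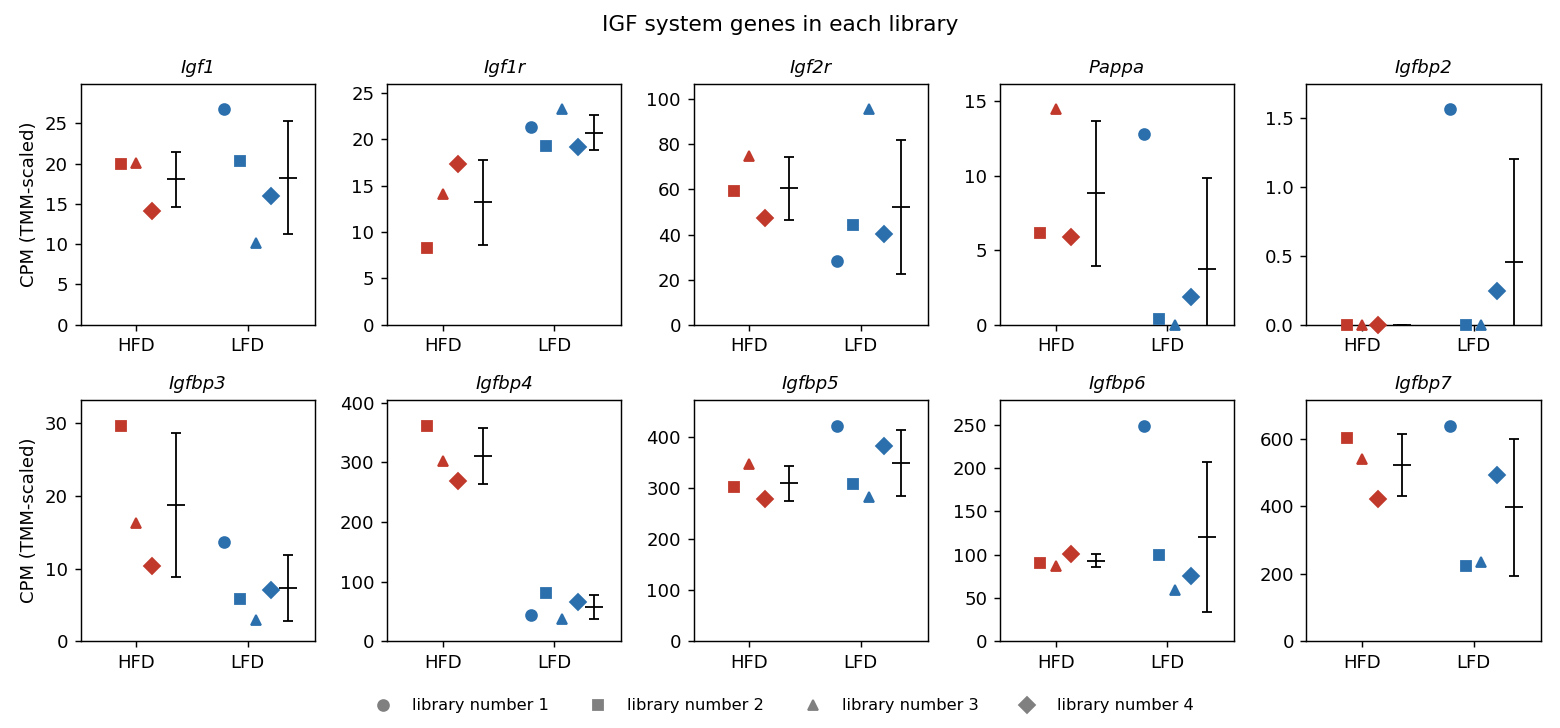
TMM-scaled CPM (vertical axes, linear, each from 0) of the 10 genes in the HFD and LFD libraries. Each symbol is 1 library, its shape the library number, and the black bar with whiskers is the mean ± SD (n = 3 for HFD, n = 4 for LFD; whiskers are cut at 0). Igfbp4 lies between 268 and 361 CPM in HFD and between 37.3 and 81.5 CPM in LFD, and library LFD 1 is the highest LFD library for Igf1, Igfbp2, Igfbp3, Igfbp5, Igfbp6, Igfbp7 and Pappa.

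Compared per length of transcript, Igfbp4, Igfbp5, Igfbp6 and Igfbp7 stood far above the ligand and its receptor, while Igfbp2 was the lowest gene of the set in both diets. Levels between genes are given as CPM per kilobase of exon (CPM per kb), with overlapping exons merged. In HFD libraries the medians were 447 for Igfbp7, 81.4 for Igfbp6, 68.3 for Igfbp4, 50.4 for Igfbp5, 6.36 for Igf2r, 5.20 for Igfbp3, 2.02 for Igf1, 0.837 for Igf1r, 0.558 for Pappa and 0 CPM per kb for Igfbp2. In LFD libraries they were 300.3 for Igfbp7, 78.6 for Igfbp6, 57.6 for Igfbp5, 12.5 for Igfbp4, 4.55 for Igf2r, 2.06 for Igfbp3, 1.83 for Igf1, 1.21 for Igf1r, 0.102 for Pappa and 0.0669 CPM per kb for Igfbp2. The order was thus the same in both diets apart from Igfbp4 and Igfbp5, which changed places. Among neighbours in the HFD order, the ranges over libraries overlapped for Igfbp6 and Igfbp4, for Igf2r and Igfbp3, and for Igf1r and Pappa. In the LFD order they overlapped for every pair of neighbours except Igfbp5 and Igfbp4. Within a library, all 4 LFD libraries had more Igfbp5 than Igfbp4. All 4 also had more Igfbp7 than Igfbp6, more Igfbp6 than Igfbp5 and more Igf1r than Pappa.

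Igf1, the ligand (chromosome 10, 87858265 to 87937042), measured 20.003, 20.09 and 14.1 CPM in HFD 2, 3 and 4, against 26.7, 20.3, 10.1 and 16.0 CPM in LFD 1 to 4. The HFD values all lay inside the LFD range, with means of 18.1 ± 3.44 CPM in HFD and 18.3 ± 7.02 CPM in LFD. The log2 fold change was -0.02 ± 0.36 (SE), and its sign turned without LFD 1 (0.23), without LFD 2 (0.04) and without HFD 4 (0.14).

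Igf1r, the signalling receptor (chromosome 7, 67952827 to 68233668), measured 8.29, 14.1 and 17.3 CPM in HFD 2, 3 and 4, against 21.3, 19.2, 23.2 and 19.2 CPM in LFD 1 to 4. Every HFD library lay below every LFD library, and the 3 HFD libraries differed among themselves by 2.09 times where the 4 LFD libraries differed by 1.21 times. The log2 fold change was -0.65 ± 0.30, and -0.41 without HFD 2. Igf2r, the mannose 6-phosphate receptor, which carries lysosomal enzymes and takes up IGF2 without passing on its signal (chromosome 17, 12682406 to 12769664), measured 59.2, 74.96 and 47.2 CPM in HFD, against 28.4, 44.2, 95.5 and 40.4 CPM in LFD. LFD 3 was the highest of all 7 libraries and LFD 1 the lowest, so the diets overlapped (log2 fold change 0.21 ± 0.41, 0.01 without LFD 1 and 0.69 without LFD 3). In bulk RNA, fewer cells of a type and less RNA per cell cannot be told apart for these or any other genes.

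Igfbp4 had the widest distance between diets of the 9 genes. Its protein binds IGF1 and IGF2, mostly holds them back from the receptor, and is the classical substrate of PAPP-A. The gene (chromosome 11, 99041244 to 99054392) had 10320, 6248 and 5610 counts in HFD 2, 3 and 4, against 1133, 1301, 599 and 1335 counts in LFD 1 to 4. As CPM these were 361, 302 and 268 in HFD, against 44.2, 81.5, 37.3 and 66.0 in LFD. The lowest HFD library thus lay far above the highest LFD library. The means were 310.2 ± 47.0 CPM in HFD and 57.2 ± 20.3 CPM in LFD, and the log2 fold change was 2.44 ± 0.31. It ranked below 374 genes by mean CPM in HFD and below 2751 genes in LFD. The spread within a diet was ordinary, with a coefficient of variation of 15.2% in HFD and 35.4% in LFD, where the medians over the 8991 genes with a mean of at least 8 CPM were 21.2% and 30.7%.

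The start regions of Igfbp4, of Igf1r and of Igfbp5 are shown because Igfbp4 and Igf1r are the members whose diets did not overlap, and Igfbp5 is an abundant member whose diets did. Each holds 250 bases before and 50 after the start in RefSeq (build GRCm38.p6), 5′ to 3′ on the strand of the gene, and capitals mark matches, on either strand, to the TATA motif with the letters TATAAA. They also mark the GC box, whose letters are GGGCGG.
Igfbp4, chr11:99040994-99041293, plus strand: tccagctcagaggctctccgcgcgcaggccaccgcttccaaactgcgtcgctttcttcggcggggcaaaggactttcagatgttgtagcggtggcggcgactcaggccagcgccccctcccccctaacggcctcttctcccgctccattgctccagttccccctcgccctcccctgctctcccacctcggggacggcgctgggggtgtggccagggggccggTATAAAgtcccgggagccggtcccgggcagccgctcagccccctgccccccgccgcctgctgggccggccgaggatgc
Igf1r, chr7:67952007-67952306, plus strand: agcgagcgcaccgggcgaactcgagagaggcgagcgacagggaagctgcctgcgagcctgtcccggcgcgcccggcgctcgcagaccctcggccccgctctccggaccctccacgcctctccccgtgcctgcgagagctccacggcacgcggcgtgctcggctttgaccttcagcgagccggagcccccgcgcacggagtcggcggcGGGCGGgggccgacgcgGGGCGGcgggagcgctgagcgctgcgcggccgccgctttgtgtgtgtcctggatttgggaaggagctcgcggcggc
Igfbp5, chr1:72874816-72875115, minus strand: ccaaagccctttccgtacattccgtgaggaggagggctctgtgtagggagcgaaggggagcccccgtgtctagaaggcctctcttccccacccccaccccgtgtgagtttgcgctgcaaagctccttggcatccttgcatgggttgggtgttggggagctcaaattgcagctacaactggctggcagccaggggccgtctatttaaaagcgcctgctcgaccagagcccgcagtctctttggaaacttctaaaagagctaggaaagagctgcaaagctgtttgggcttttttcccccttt
The Igfbp4 window holds 1 TATA match, at position -28 from the start, and no GC box, with 71.3% G and C and 27 CpG. The Igf1r window holds 2 GC boxes, at -43 and -26, and no TATA, with 76.0% G and C and 48 CpG. The Igfbp5 window holds neither, with 56.3% G and C and 10 CpG. Over all 32851 windows of this length TATA was present in 13.6% and the GC box in 35.7%, and the medians were 52.7% G and C and 7 CpG. The motifs TGANTCA (AP-1), TGACGTCA (CRE) and CACGTG (E-box) were searched too and matched in none of the 3 windows, where 7.81%, 1.79% and 7.15% of all windows hold them. The RefSeq start of Igf1r (67952257) lies upstream of the start of the gene in the annotation used for lengths (67952827), while for Igfbp4 both are 99041244. For Igfbp5, on the minus strand, the RefSeq start (72874865) lies downstream of the annotated start (72874884). No signal at promoters was measured in these samples.

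Igfbp3, which carries most circulating IGF, came next among binding proteins in the size of its difference. The gene (chromosome 11, 7206086 to 7213923) measured 29.6, 16.3 and 10.4 CPM in HFD 2, 3 and 4, against 13.7, 5.83, 2.86 and 7.07 CPM in LFD 1 to 4. HFD 4 lay below LFD 1, so the diets overlapped, and the log2 fold change was 1.35 ± 0.57, with 0.85 without HFD 2 and 1.85 without LFD 1. The HFD libraries differed among themselves by 2.86 times and the LFD libraries by 4.77 times.

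Igfbp5, a binding protein stored in bone matrix, had similar values in both diets. The gene (chromosome 1, 72857932 to 72874884) measured 302, 346 and 279 CPM in HFD, against 422, 309, 282 and 383 CPM in LFD. The diets overlapped, with a coefficient of variation of 11.1% in HFD and 18.5% in LFD and a log2 fold change of -0.17 ± 0.23 (-0.06 without LFD 1). Within each library, the ratio of Igfbp4 to Igfbp5 per kb was 1.62, 1.19 and 1.31 in HFD and 0.143, 0.359, 0.180 and 0.234 in LFD. Every HFD library thus had more Igfbp4 than Igfbp5 per length, and every LFD library less.

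Igfbp6, whose protein prefers IGF2 (chromosome 15, 102144362 to 102149511), measured 90.6, 87.1 and 101 CPM in HFD, against 249, 99.5, 59.6 and 75.3 CPM in LFD. LFD 1 stood above the other 6 libraries, and the log2 fold change of -0.38 ± 0.47 became 0.26 without it. Igfbp7, a secreted relative that binds IGF weakly (chromosome 5, 77349240 to 77408041), measured 602, 541 and 422 CPM in HFD, against 637, 222, 233 and 493 CPM in LFD. LFD 2 and LFD 3 lay below all HFD libraries, LFD 4 lay inside their range and LFD 1 above it, and the log2 fold change was 0.40 ± 0.41, with 0.20 without LFD 2 and 0.73 without LFD 1. An exon of Igfbp7 overlaps one of Polr2b on the other strand, and the strand setting of the counting is not given in the sources used here, so reads from the shared stretch cannot be assigned to either gene with certainty.

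Igfbp2, which is abundant in serum, was at or near 0 in these cells. It had 0 counts in each HFD library and 40, 0, 0 and 5 counts in LFD 1 to 4 (chromosome 1, 72824503 to 72852474). A count of 0 over the 3 HFD libraries allows a level of up to 0.0427 CPM, by a limit of 3 counts that covers counting error only. With nearly all of its counts in LFD 1, no fold is given.

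Pappa, the protease that cuts IGFBP4, was detected mainly in the HFD libraries and LFD 1. The gene (chromosome 4, 65124174 to 65357509) measured 6.15, 14.4 and 5.88 CPM in HFD 2, 3 and 4, against 12.8, 0.376, 0 and 1.88 CPM in LFD 1 to 4. All 3 HFD libraries lay above LFD 2, 3 and 4, and LFD 1 lay inside the HFD range. The log2 fold change was 1.22 ± 1.44 with all libraries and 3.53 ± 1.33 without LFD 1, so that 1 library decides its size.

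The levels of the binding protein genes per length were also summed within each library. Igfbp2 to Igfbp7 together came to 721, 657 and 551 CPM per kb in HFD 2, 3 and 4, against 836, 344, 303 and 556 CPM per kb in LFD 1 to 4, and these sums overlapped. Igfbp4 made up 11.3%, 10.4% and 11.02% of the sum in HFD, against 1.20%, 5.36%, 2.79% and 2.69% in LFD. Every HFD share lay above every LFD share. Igfbp7 was the main component in all 7 libraries, with 66.9% ± 3.01 of the sum in HFD and 63.3% ± 8.19 in LFD (SD, n = 3 and n = 4). Igfbp6 contributed 13.3% ± 2.86 in HFD and 20.7% ± 6.98 in LFD, Igfbp5 8.06% ± 0.950 and 12.6% ± 3.30, and Igfbp3 0.902% ± 0.368 and 0.443% ± 0.111, each in the same order of diets. The Igfbp3 shares did not overlap either, at 0.601% to 1.31% in HFD and 0.302% to 0.540% in LFD. The shares of Igfbp5, Igfbp6 and Igfbp7 overlapped between the diets.

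**Figure D2:**
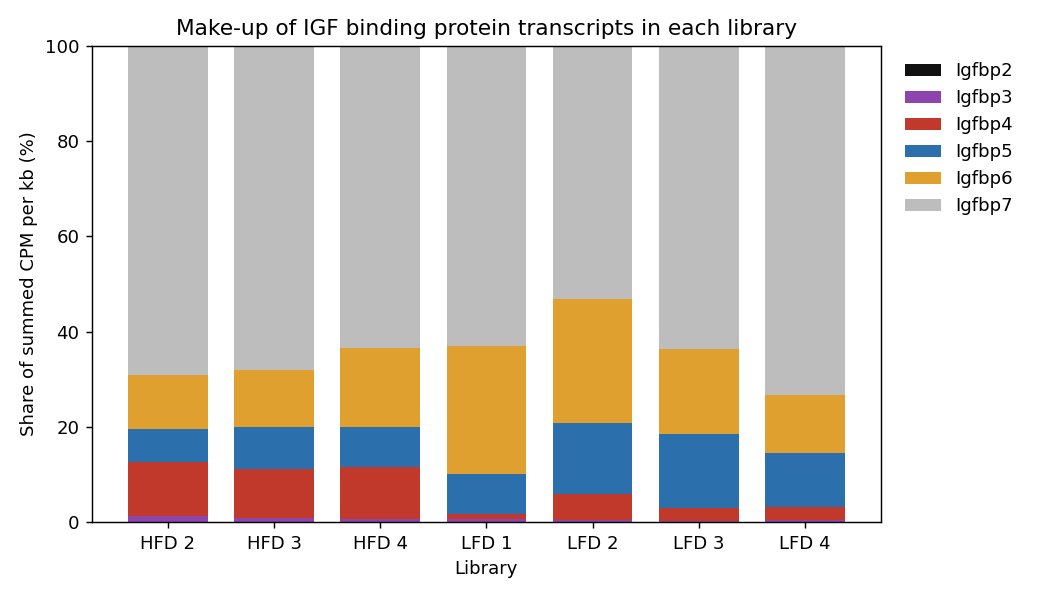
Share (%) of each binding protein gene in the summed CPM per kb of Igfbp2 to Igfbp7, 1 stacked bar per library, HFD libraries on the left and LFD libraries on the right. The Igfbp4 segment is 10.4% to 11.3% in HFD and 1.20% to 5.36% in LFD, and the Igfbp7 segment is the tallest in every bar.

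Profiles of the 9 tested genes across the 7 libraries were set beside those of 8978 other genes with a mean of at least 8 CPM. The measure was the mean absolute difference of log2(CPM + 1) over the 7 libraries, after each gene was centred on its own mean. For Igfbp4 the nearest gene was C5ar1, the complement C5a receptor of myeloid cells, at 0.26, where the median gene was 1.23 away. C5ar1 measured 93.4 ± 7.14 CPM in HFD and 16.3 ± 5.14 CPM in LFD, and it was the one gene outside the sex-linked set to pass edgeR's adjusted threshold. The nearest genes were Rdh10 for Igfbp3 (0.20), Glis3 for Pappa (0.29) and Naa80 for Igf1r (0.07). They were Pum3 for Igf1 (0.07), Ndufs8 for Igfbp5 (0.04), Mir22hg for Igfbp6 (0.14), Larp4 for Igfbp7 (0.07) and H2-T22 for Igf2r (0.18). With so many genes and so few libraries, close neighbours are found for any profile, and likeness is given as a description.

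Of 74 listed genes of the same pathway outside the set, 64 were tested, and 0 passed edgeR's adjusted threshold, while 11 had an unadjusted p under 0.05 (7.53% of all genes), and limma-voom called 0 (0.196% of all genes). DESeq2 called 2, Ccn5 (adjusted p = 0.0270) and Rictor (adjusted p = 0.0406), where it called 2.15% of all genes. Log2 fold changes were positive for 40 and negative for 24, where 51.5% of all genes were positive, with a median of 0.35 against 0.02 over all genes. The genes Igfbp1, Igfbpl1, Ins1, Ins2, Insrr, Irs4 and Igf2bp1 had 0 counts in all 7 libraries.

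The protease group stood nearest to Igfbp4 and Pappa in function, and 6 of its 7 tested genes had positive log2 fold changes (median 0.68). Pappa2, a relative of Pappa that cuts IGFBP3 and IGFBP5, measured 6.96, 15.4 and 6.40 CPM in HFD 2, 3 and 4, against 1.68, 0, 0.0623 and 0 CPM in LFD 1 to 4. Every HFD library lay above every LFD library (log2 fold change 4.39 ± 1.58, edgeR adjusted p = 0.571), and without LFD 1 the log2 fold change was 8.55. Stc2, a stanniocalcin that blocks PAPP-A, measured 20.9, 15.6 and 20.6 CPM in HFD, against 3.63, 11.6, 9.09 and 13.2 CPM in LFD. The diets again did not overlap (log2 fold change 1.02 ± 0.44, edgeR adjusted p = 0.656). Htra3, a secreted serine protease, lay the other way and also without overlap, at 356 ± 17.1 CPM in HFD and 537 ± 171 CPM in LFD (log2 fold change -0.60 ± 0.29, edgeR adjusted p = 0.685).

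Proteins that share a domain of the IGF binding protein type gave positive values for 6 of 9 tested genes (median 0.59). The largest of these values was for Esm1 (log2 fold change 2.72 ± 1.08, edgeR adjusted p = 0.617). Esm1 is also on the marrow reticular stroma list below, so these lists share a gene. Ccn5, a matricellular protein of the CCN family, measured 97.9, 94.9 and 89.8 CPM in HFD, against 32.7, 43.3, 15.5 and 50.5 CPM in LFD. The diets did not overlap (log2 fold change 1.41 ± 0.36, edgeR adjusted p = 0.318). Ccn4 of the same family measured 62.9 ± 9.03 CPM in HFD and 40.6 ± 8.05 CPM in LFD (log2 fold change 0.63 ± 0.22, adjusted p = 0.531). Of these genes Ccn5 had the smallest p.

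Downstream of the receptor the values were mixed. In the PI3K, AKT and mTOR group 10 of 23 genes were positive and 13 negative (median -0.03). Rictor, the defining subunit of mTOR complex 2, measured 34.6 ± 3.87 CPM in HFD and 53.9 ± 6.14 CPM in LFD (log2 fold change -0.64 ± 0.19, edgeR adjusted p = 0.410). Among the insulin receptor and its docking proteins 7 of 9 were positive (median 0.30), with the adaptors Grb14 at 0.55 ± 0.28 and Shc1 at 0.35 ± 0.19 (log2 fold changes, edgeR adjusted p = 0.692 and 0.693).

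In the growth hormone axis 6 of 9 genes had positive log2 fold changes (median 0.31). Socs2, which damps growth hormone receptor signalling, measured 24.4 ± 5.46 CPM in HFD and 14.5 ± 4.76 CPM in LFD (log2 fold change 0.74 ± 0.33, edgeR adjusted p = 0.664). Ptpn6, a phosphatase mainly of blood cells, measured 44.5 ± 14.3 and 6.74 ± 7.58 CPM in the same order (2.72 ± 1.16, adjusted p = 0.658). Igf2, the other IGF ligand, measured 5.84, 4.35 and 5.21 CPM in HFD, against 14.7, 2.94, 5.42 and 3.76 CPM in LFD, with LFD 1 the highest library (log2 fold change -0.39 ± 0.63, and 0.35 without LFD 1). Igfals, which holds IGF in the large serum complex, had 50, 18 and 0 counts in HFD and 0, 0, 0 and 13 counts in LFD (log2 fold change 2.39 ± 2.02). Among the smaller groups, Igf2bp2 had a log2 fold change of 2.01 ± 1.34, Tmem219, a receptor for IGFBP3, 0.89 ± 0.44, and Vtn (vitronectin) -1.40 ± 0.60, with edgeR adjusted p of 0.713, 0.685 and 0.658.

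**Figure D3:**
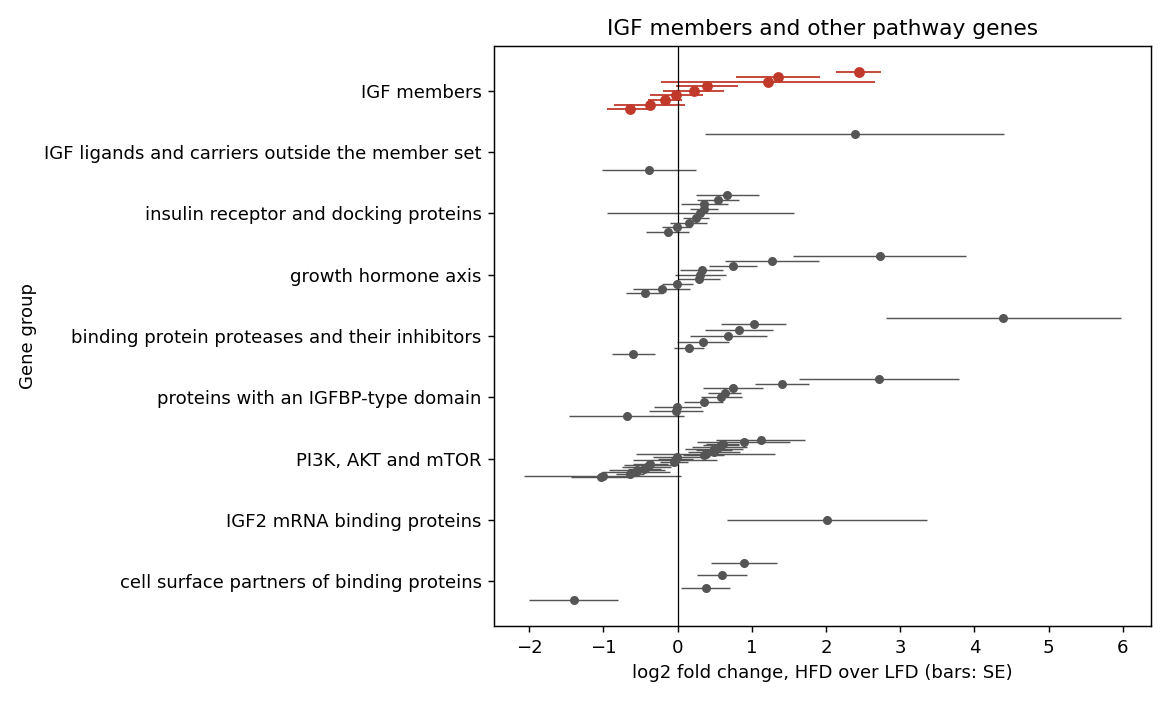
Log2 fold change (HFD over LFD, horizontal axis) with its SE for the 9 tested IGF genes (red, top row) and for 64 tested pathway genes outside the set (grey, by group). Igfbp4 lies farthest right in the top row at 2.44, and Pappa2, in the protease group, has the largest value outside it at 4.39 with an SE of 1.58.

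Markers of several cell types differed along with Igfbp4. The marrow reticular stroma list held 12 genes, among them Cxcl12, Vcam1, Lepr and Kitl. It summed to 3509, 2878 and 2137 CPM in HFD 2, 3 and 4, against 654, 856, 577 and 691 CPM in LFD 1 to 4. Of its 12 genes 11, all but Vcam1, had positive log2 fold changes. In edgeR 0 passed the adjusted threshold and 7 had an unadjusted p under 0.05 (7.53% of all genes), and DESeq2 called 5 (2.15% of all genes). The order of the 7 libraries by this sum was the same as their order by Igfbp4, which is not on the list. Igfbp3, Igfbp4 and Igfbp5 were each compared with the reticular, granulocyte, monocyte and macrophage, and erythroid sums. No other pair shared its order. Igfbp4 amounted to 10.3% to 12.5% of the reticular sum in HFD and 6.47% to 9.55% in LFD. The ratio of the means of these percentages was 1.38, where the ratio of mean Igfbp4 CPM was 5.42. On this list Cxcl12, a chemokine that holds blood stem cells in marrow, measured 1556 ± 434 CPM in HFD and 97.2 ± 90.4 CPM in LFD. Vcam1 measured 310 ± 67.8 CPM in HFD and 319 ± 52.5 CPM in LFD (log2 fold change -0.04 ± 0.25). Vcam1 was thus a far larger part of the sum in LFD than in HFD. The percentages of Igfbp4 and the ratio of 1.38 depend on Vcam1 being on the list. With Vcam1 taken out of the sum, the mean percentage of Igfbp4 is lower in HFD than in LFD, and the ranges overlap. The percentages thus do not rank Igfbp4 against the other list genes. Igfbp5 amounted to 11.2% ± 2.32 of the full reticular sum, Vcam1 included, in HFD and 51.2% ± 11.9 in LFD (SD, n = 3 and n = 4).

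The granulocyte list summed to 8698, 12928 and 16593 CPM in HFD 2, 3 and 4, against 956, 1808, 2312 and 5456 CPM in LFD 1 to 4, with 11 of 11 genes positive (51.5% of all genes) and 9 with HFD above LFD without overlap (8.40% of all genes). In edgeR 0 of these genes passed the adjusted threshold and 8 had an unadjusted p under 0.05 (7.53% of all genes). DESeq2 called 8 (2.15% of all genes). The granulocyte gene S100a8 measured 2765 ± 884 CPM in HFD and 534 ± 411 CPM in LFD. Within the 3 HFD libraries, the order by the granulocyte sum was the reverse of that by Igfbp4. Igfbp4 amounted to 1.62% to 4.15% of this sum in HFD and 1.21% to 4.63% in LFD, and these ranges overlapped. The monocyte and macrophage list summed to 2027 to 2388 CPM in HFD and 473 to 1053 CPM in LFD, with 10 of 12 genes positive. Vcam1 is on this list as well as on the reticular list. The blood cell gene Ptprc (CD45) measured 52.4 ± 3.21 CPM in HFD and 10.1 ± 10.5 CPM in LFD. Endothelial genes were near 0, summing to 4.55 to 8.12 CPM in HFD and 9.56 to 35.1 CPM in LFD. The part of these cell types in the differences of Igfbp4, Pappa2 and Ptpn6 was not tested.

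Sums of the other lists overlapped between the diets. They were 26358 to 41745 CPM in HFD and 12576 to 28559 CPM in LFD for osteoblast genes, and 30075 to 52447 and 16153 to 39235 CPM in the same order for chondrocyte genes. They were 502 to 665 and 456 to 651 CPM for pericyte and smooth muscle genes, 4710 to 5514 and 2317 to 6302 CPM for fibroblast and tendon genes, and 108 to 199.96 and 20.3 to 484 CPM for B lineage genes. Within the pericyte and smooth muscle list single genes lay apart in both directions, and 3 of 6 tested genes had HFD below LFD without overlap (3.47% of all genes). These were Notch3 at 37.8 ± 7.89 CPM in HFD and 112 ± 10.8 CPM in LFD, Acta2 at 31.3 ± 9.96 and 105 ± 45.0 CPM, and Tagln at 5.06 ± 2.36 and 16.6 ± 5.56 CPM in the same order. Cspg4, which made up most of the sum, had HFD above LFD at 491 ± 85.9 CPM in HFD and 322 ± 62.1 CPM in LFD. None of the 4 passed edgeR's adjusted threshold (the smallest adjusted p was 0.0830, for Notch3). DESeq2 called 3 genes of the list, where it called 2.15% of all genes. LFD 1 had the lowest osteoblast, chondrocyte, granulocyte and B lineage sums of the 4 LFD libraries and, with LFD 4, the highest fibroblast and tendon sum (6295 and 6302 CPM). LFD 1 was also the library with the highest Igf1, Igfbp2, Igfbp5, Igfbp6, Igfbp7 and Igf2 of all 7.

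**Figure D4:**
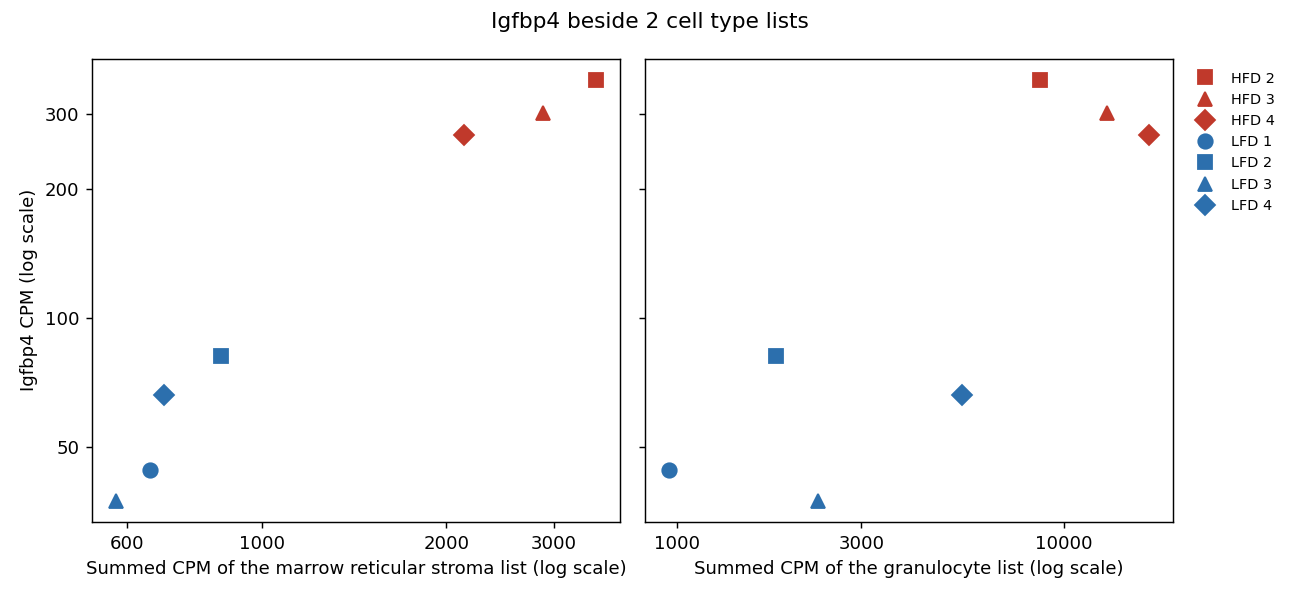
Igfbp4 (CPM, log scale, vertical axis) against the summed CPM of the marrow reticular stroma list (left) and of the granulocyte list (right), both on log scales. Each point is 1 library, HFD in red and LFD in blue. In the left panel Igfbp4 is higher in each library with a higher sum, and in the right panel the 3 HFD libraries run the other way, from 361 CPM at a sum of 8698 to 268 CPM at 16593.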

How the data were processed

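RNA was measured in 3 HFD and 4 LFD libraries of sorted cells, amplified with a low-input SMART-Seq kit and sequenced as paired reads, per the labels' protocols. The authors deposited raw read counts, 1 row for each Ensembl identifier. STAR 2.5.2b, HTSeq 0.11.2 and mm10 appear in the submitters' processing notes. No source used here gives the strand setting, annotation release or handling of reads with several matches. Of 42687 identifiers 42250 had a symbol. Lengths and coordinates came from GENCODE M21 (same build), and promoters from RefSeq for 9 of the 10 genes.

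The diets were compared in all genes with edgeR 4.0.16 (quasi-likelihood, robust, TMM, filterByExpr, diet alone, Benjamini-Hochberg at 0.05) in R 4.3.3, two-sided. SE is the log2 fold change over the root of F. Fitting was tested on simulated data. The members, lists and tests were chosen with earlier results of these data known. Text names every member, the 2 genes of each pathway list with the smallest p (1 gene is not reported here), the leading genes of cell lists a result turns on, and 1 nearest gene per member. Other genes named (Htra3, Esm1, Notch3, Acta2, Tagln, Cspg4, Lepr, Kitl, genes at 0) were chosen after their values were seen. Alternatives were RLE, 2 other filters, no robust fit, erythroid genes left out, DESeq2 1.42.0, limma-voom (limma 3.58.1), an adjusted p of 0.1, longest transcript lengths, plain totals, each library left out and the replicate number as a block. Nothing says that libraries came from separate animals, so p-values measure the spread between these libraries, which may be technical. PCR copies without molecular identifiers make limits from counts cover counting error only.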

Additional observations from a re-analysis of the deposited data

Results flagged for a closer look

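Among the 4 LFD libraries, the highest stood apart from the next by most of the whole range (Dixon's 95% limit for 4 samples) for 4 of 25 genes looked at, a gap that chance gives in about 1 in 20 such groups. LFD 1 stood apart for Igfbp2 (1.56 CPM), for Pappa (12.8 CPM) and for Pappa2 (1.68 CPM). LFD 4 stood apart for Igfals (0.643 CPM), whose 13 counts there were its only counts in LFD, so the gap fills the range whatever their number. HFD has 3 libraries, too few for this comparison.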

How the results depend on the processing

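The number of genes called over the whole table was 5, and it was 8 with no filter beyond 1 count, 0 with at least 10 counts in 4 libraries, 358 with DESeq2, 28 with limma-voom and 10 at an adjusted p of 0.1. It was 1 to 6 when 1 library was left out (1 without HFD 2, HFD 3, HFD 4 or LFD 2, 3 without LFD 1). With the replicate number as a block it was 0. Same-numbered libraries did not deviate together (correlations of deviations -0.14, 0.06 and -0.05 for numbers 2, 3 and 4), so the numbers were not taken as pairs. Pathway genes called numbered 2 with DESeq2, which called 2.15% of all genes, and 0 under each other alternative. Igfbp4 alone of the members was called with no filter, with DESeq2, with limma-voom and at an adjusted p of 0.1 (1 gene each). The shares of all genes called were 0.0343%, 2.15%, 0.196% and 0.0699% in that order. The last setting was applied to the members after seeing the data. The set was chosen with this contrast known, so these calls are a description and no test of Igfbp4. The log2 fold change of Igfbp4 stayed between 2.29 and 2.66 under every alternative run. The log2 fold change of Pappa was 3.27 with limma-voom, 4.24 with the replicate block, and between 0.68 and 3.53 with 1 library left out. Igf2 had a log2 fold change of -0.39 and turned to 0.033 with limma-voom and 0.38 with the replicate block. Leaving out 1 library gave -0.63 to 0.35 for Igf2, the positive value without LFD 1. Igf1 and Igfbp6 turned positive with limma-voom (0.17 and 0.04) and the block (0.26 and 0.28), which moved the median of all genes to 0.15. The cause was not tested. With the longest transcript as length, Igfbp3 passed Igf2r in the HFD order, and Igf1, Igf1r and HFD Igfbp4 levels moved by more than 1 SD (HFD Igfbp4 to 81.0 CPM per kb and 12.3% of the sum). Depth limits Igfbp2 and Pappa in LFD, where a library held 0 to 40 and 0 to 328 counts.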
